A study of Mus musculus with 7 samples.

Results

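The T cell receptor (TCR) signals through a small set of proteins, and the transcripts of 9 of them were followed here from DN3a thymocytes into the αβ and γδ branches of T cell development. They were the invariant CD3 chains Cd3d, Cd3e, Cd3g and Cd247, the tyrosine kinases Lck, Zap70 and Syk, and the adaptors Lcp2, which encodes SLP-76, and Lat. All 9 were found by symbol among the 32286 features of each deposited matrix. They were taken for their place in the pathway, with earlier results of these data known. Single-cell 3' RNA-seq had been run on 7 libraries of sorted CD4-CD8- (double negative, DN) mouse thymocytes, with 1 library for each group. The 5 wild-type (WT) groups came from pooled C57BL/6 thymi of female and male mice aged 6 to 8 weeks, depleted of CD4+ and CD8+ cells with beads. They were the unselected DN3a, DN3b γδ- and its successor DN4 γδ- on the αβ branch, with DN3b γδ+ and its successor DN4 γδ+ on the γδ branch. CD71 separated DN3b γδ- from DN3a in the sort, and surface TCRδ and CD3 defined the γδ+ gates, so that surface CD3 itself was a sorting criterion for 2 of the groups. The other 2 groups, DN3 γδ- and DN3 γδint, came from mice of the genotype Lat-/-TCRd-H2BEGFP on the same C57BL/6 background, whose age the labels do not give. They lacked LAT and carried a fluorescent reporter in the TCRδ locus that the WT groups did not carry. They were also sorted from total thymocytes, without the bead depletion. Genotype, reporter, preparation and library therefore cannot be told apart. In the study part of the DN3 γδint cells carried CD71, so that the gates of this group and of DN3a were not alike in CD71. All 7 libraries received 500 B lymphocytes before capture.

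The CD3 chains carry the activation motifs of the receptor, since the antigen-binding chains have almost no cytoplasmic part. Lck phosphorylates these motifs, ZAP-70 or its relative Syk docks on them and phosphorylates LAT and SLP-76, and this pair of adaptors assembles the enzymes that raise calcium and activate Ras. DN3 thymocytes use the same machinery below the pre-TCR at β-selection and below the γδ TCR at γδ selection, and in the mouse the γδ TCR is built without the CD3δ chain.

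Cd3g, Cd3d and Cd3e lie together on chromosome 9 (GRCm38, GENCODE vM21). Cd3g spans 44969572 to 44980431 on the minus strand, Cd3d spans 44981786 to 44987339 on the plus strand, and Cd3e spans 44998740 to 45009627 on the minus strand. Cd3g and Cd3d are thus transcribed away from each other, from annotated starts 1355 bases apart. Cd247, which encodes the ζ chain, lies elsewhere, on chromosome 1 from 165788681 to 165877277. Their promoters are shown because the clustered genes did not keep the same ratio to each other across the libraries described below. Each sequence runs 5' to 3' on the strand of its gene, from 250 bases before the RefSeq start to 50 bases after it (RefSeq, GRCm38.p6). Capitals mark GGAAGT, the core of ETS factor sites, and CAGCTG, an E box, with either strand counted, so that GGAAGT also appears as ACTTCC.
Cd3g, chr9:44980382-44980681, minus strand: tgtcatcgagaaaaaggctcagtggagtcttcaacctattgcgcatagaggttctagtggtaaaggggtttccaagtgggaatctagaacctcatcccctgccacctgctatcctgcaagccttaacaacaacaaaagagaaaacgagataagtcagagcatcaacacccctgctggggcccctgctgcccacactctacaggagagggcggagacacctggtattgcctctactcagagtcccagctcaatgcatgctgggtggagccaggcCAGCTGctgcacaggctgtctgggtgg
Cd3d, chr9:44981536-44981835, plus strand: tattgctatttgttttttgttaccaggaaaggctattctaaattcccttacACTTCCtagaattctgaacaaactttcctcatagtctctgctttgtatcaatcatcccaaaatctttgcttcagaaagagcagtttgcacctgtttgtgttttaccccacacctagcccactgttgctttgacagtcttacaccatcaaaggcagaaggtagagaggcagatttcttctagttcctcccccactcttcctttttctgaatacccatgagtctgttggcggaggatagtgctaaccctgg
Cd3e, chr9:45009562-45009861, minus strand: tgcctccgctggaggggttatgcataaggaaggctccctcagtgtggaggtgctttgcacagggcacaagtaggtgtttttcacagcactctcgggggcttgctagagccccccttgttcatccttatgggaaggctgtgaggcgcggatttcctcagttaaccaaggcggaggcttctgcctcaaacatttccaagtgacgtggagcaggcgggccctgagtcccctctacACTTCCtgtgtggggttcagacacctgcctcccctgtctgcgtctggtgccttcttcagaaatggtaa
RefSeq gives 13 promoters for the 9 genes. GGAAGT was present in 7 of the 13 and in 23.8% of 32851 mouse promoters of the same length. CAGCTG was present in 3 of the 13, of Cd3g, Syk and Lcp2, and in 16.3% of all promoters. The other motifs searched were CACGTG, another E box, in 2 of the 13 and 7.15% of all, TGTGGT, a RUNX core, in 3 and 16.8%, and TATAAA, the TATA box, in 0 and 13.6%. The Cd3d and Cd3e windows shown hold GGAAGT and the Cd3g window holds CAGCTG.

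Across the libraries, 79076 of 90016 barcodes passed the quality filter and 71081 held at most 1 UMI (unique molecular identifier) of the B cell genes Cd79a, Cd79b and Ms4a1. The latter, called thymocyte barcodes, numbered 5274 to 18515 per library and held 37820685 to 338698944 UMIs, with a median of 5738 to 18510 UMIs per barcode. The 1067 B-like barcodes, with at least 10 UMIs of these genes and more than 2 times the UMIs of 6 T cell markers, show what free RNA and spiked B cells carried. A level below is the summed count of a gene divided by all thymocyte UMIs of that library and multiplied by 1000000 (CPM), with an exact Poisson 95% interval. With 1 library per group no test was possible, and every interval covers counting error only, not the spread between mice or sorts. Barcodes in S or G2M made up 4.41% of DN3a, 90.01% of DN3b γδ-, 87.3% of DN4 γδ-, 79.5% of DN3b γδ+, 17.0% of DN4 γδ+, 6.12% of Lat-/- DN3 γδ- and 28.1% of Lat-/- DN3 γδint. The stage labels were checked against defining markers. Il2ra, which encodes CD25, was at 620 CPM in DN3a and 4.25 CPM in DN4 γδ+, and Trdc was at 1016 and 1844 CPM in the WT γδ+ libraries and at 201.5 to 311 CPM in the other WT libraries. In the Lat-/- libraries, whose edited allele is counted as a feature of its own, Trdc was at 23.99 CPM in DN3 γδ- and 36.3 CPM in DN3 γδint, and the reporter feature at 30.5 and 44.2 CPM, with 0 to 3 UMIs of it in each WT library. Of the markers of other cells, 5 of 5 NK cell genes summed to between 368 and 2759 CPM, almost all from Gzma and Nkg7, with Ncr1 at 0 everywhere. The 4 plasmacytoid genes were carried by Ly6d and Bst2, with Siglech at most at 0.0793 CPM, the 4 haemoglobin genes reached 169.6 CPM in DN4 γδ-, and the 7 myeloid genes reached 45.5 CPM, almost all Lyz2. Leaving out the 7 to 123 barcodes per library with at least 3 summed UMIs of haemoglobin, myeloid genes or Siglech moved no log2 ratio of the 9 genes by more than 0.05. Those barcodes held 98.1% of such UMIs in DN4 γδ- and 86.1% to 97.5% in the other 3 libraries of DN3b and DN4, but 10.1% in DN3a and 18.4% and 28.99% in the Lat-/- libraries, where most such UMIs were in barcodes that were kept. Between 18 and 93 barcode sequences were shared by each pair of libraries. The ribosomal share of UMIs was 18.2% in Lat-/- DN3 γδint, against 27.7% to 33.7% in the others.

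**Figure D1:**
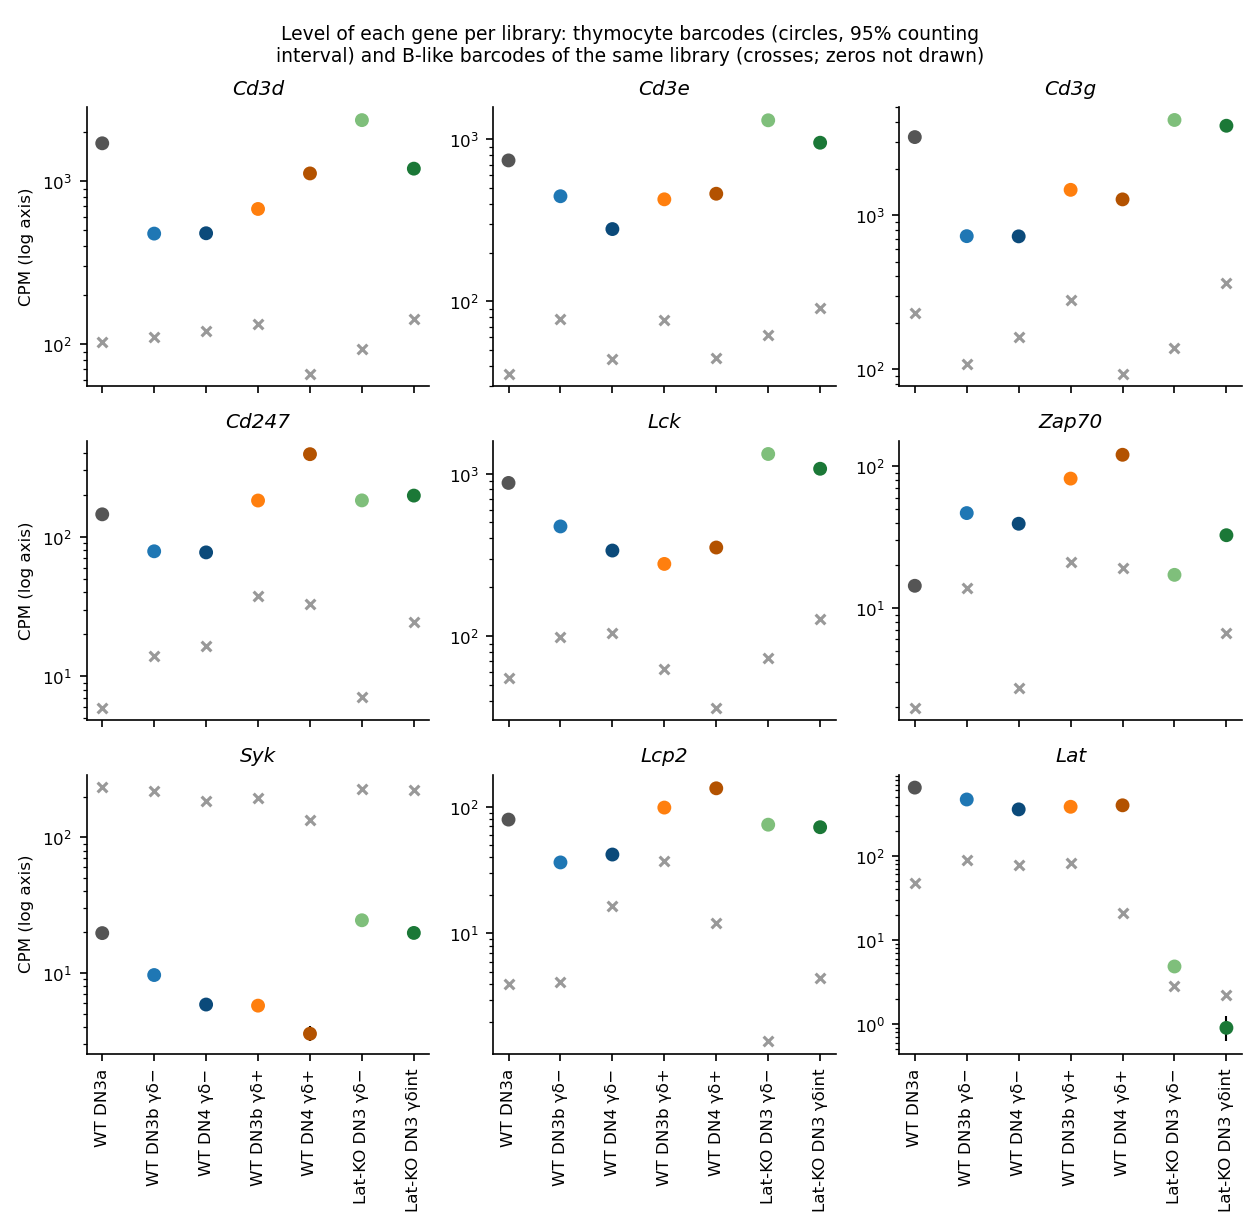
Level of each of the 9 genes (CPM, log axis) in the thymocyte barcodes of the 7 libraries, with exact Poisson 95% intervals of the counts. Among the WT libraries Zap70 is lowest in DN3a and highest in DN4 γδ+ and Syk the reverse, and Lat is near the bottom of the axis in both Lat-/- libraries.

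Among the WT groups the sum of the CD3 genes, and each of Cd3d, Cd3e and Cd3g, was highest in DN3a, while Cd247 was not. The summed level of the 4 genes was 5805 CPM (5784 to 5825) in DN3a, 3234 CPM in DN4 γδ+, 2743 CPM in DN3b γδ+, 1732 CPM in DN3b γδ- and 1565 CPM in DN4 γδ-, and no intervals overlapped. DN3a thus stood 3.35-fold above DN3b γδ- and 2.12-fold above DN3b γδ+. The order of DN4 γδ+ above DN3b γδ+ was reversed under some other settings, given below. Per barcode, without scaling, the sum was 45.75 UMIs in DN3a, 43.5 UMIs in DN3b γδ+, 31.7 UMIs in DN3b γδ-, 29.4 UMIs in DN4 γδ- and 25.95 UMIs in DN4 γδ+. DN3b γδ+ barcodes therefore held nearly as many CD3 UMIs as DN3a barcodes while their median depth was 15390 against 7275 UMIs, and whether larger cells or deeper sampling gave the extra UMIs cannot be told apart.

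Cd3d was at 1710 CPM (1699 to 1721) in DN3a, 477 CPM in DN3b γδ-, 479.5 CPM in DN4 γδ-, 676 CPM in DN3b γδ+ and 1117 CPM in DN4 γδ+. Its product, CD3δ, pairs with CD3ε in the αβ TCR. Cd3d was thus lowest in the αβ branch and second highest in DN4 γδ+, where the receptor is built without its product. The DN3b γδ- and DN4 γδ- values overlapped within counting error.

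Cd3g was at 3208 CPM (3192 to 3223) in DN3a, 730.5 CPM in DN3b γδ-, 728 CPM in DN4 γδ-, 1459 CPM in DN3b γδ+ and 1265 CPM in DN4 γδ+. It had the widest range of the 3 clustered genes, 4.41-fold between DN3a and DN4 γδ-, and again the αβ-branch libraries overlapped. In DN3b γδ+ it stood 1.997-fold above DN3b γδ-, on the very limit of the 2-fold rule, with a log2 ratio between 0.99 and 1.01. Cd3e, whose product pairs with both CD3γ and CD3δ, was at 742 CPM (735 to 749.5) in DN3a, 446 CPM in DN3b γδ-, 279.7 CPM in DN4 γδ-, 427 CPM in DN3b γδ+ and 462 CPM in DN4 γδ+. It varied least of the 3, over 2.65-fold, and differed by only -0.06 on the log2 scale between DN3b γδ+ and DN3b γδ-, where its neighbours Cd3g and Cd3d stood 1.997-fold and 1.42-fold higher in γδ+.

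Cd247 followed another order. It was at 145 CPM (141 to 148) in DN3a, 78.6 CPM in DN3b γδ-, 77.1 CPM in DN4 γδ-, 182 CPM in DN3b γδ+ and 390.3 CPM in DN4 γδ+. The ζ chain gene was thus highest in the γδ branch, with DN4 γδ+ 5.06-fold above DN4 γδ-. Its share of the UMIs of the 4 CD3 genes was 2.49% in DN3a, it was 4.53% at DN3b and 4.93% at DN4 of the γδ- libraries, and it was 6.62% at DN3b and 12.1% at DN4 of the γδ+ ones. Cd3g gave 55.3% of these UMIs in DN3a and 39.1% in DN4 γδ+, and Cd3e gave 12.8% in DN3a and 25.7% in DN3b γδ-. The makeup of the CD3 transcripts therefore differed between stages as well as their sum.

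**Figure D2:**
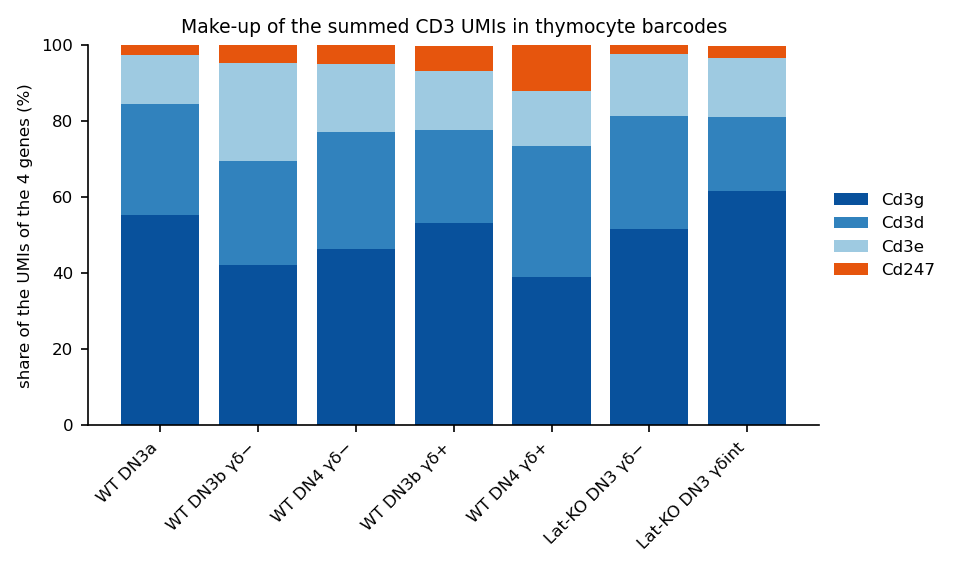
Share of each CD3 gene in the UMIs of the 4 CD3 genes together (percent), for the 7 libraries. The Cd247 share widens from 2.49% in DN3a to 12.1% in DN4 γδ+, and the Cd3e share is widest in DN3b γδ- at 25.7%.

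Part of the CD3 pattern moved with the cell cycle. Within the libraries, Cd3d was lower in S than in G1 in all 7, by log2 ratios from -1.11 to -0.52, and Cd3e was lower in all 7, from -0.64 to -0.42. Cd3g was lower in S by -0.65 to -0.12. Cd247 was also lower in S in all 7, from -1.12 in DN3a to -0.10 in DN3b γδ+. In G1 barcodes at 4000 UMIs, Cd247 was at 439.7 CPM in DN4 γδ+ and 117.6 CPM in DN4 γδ-. Among G1 barcodes alone, counted at an equal depth of 4000 UMIs, the summed CD3 level of DN3b γδ- was lower than that of DN3a by a log2 ratio of -1.26, against -1.74 over all barcodes, and that of DN3b γδ+ by -0.58 against -1.08. Cd3g in DN3b γδ+ over DN3a was at -1.14 over all barcodes and -0.56 in G1, so that its place beyond 2-fold was lost, as it was under edgeR's TMM scaling (-0.81). Cd3d in DN3b γδ+ over DN3a likewise went from -1.34 to -0.83 in G1. For DN4 γδ+ over DN3b γδ+ the log2 ratio of the summed CD3 level was 0.24 over all barcodes. It was -0.18 in G1 and -0.07 under TMM scaling, so that the order of these libraries depended on the setting.

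Lck, the kinase that starts the cascade, lies on chromosome 4 from 129548344 to 129573641 on the minus strand. It was at 875.5 CPM (868 to 883) in DN3a, 473 CPM in DN3b γδ-, 336 CPM in DN4 γδ-, 351 CPM in DN4 γδ+ and 278 CPM in DN3b γδ+. It was thus highest before selection and lowest in DN3b γδ+, and no intervals overlapped. DN3b γδ+ stood 3.15-fold below DN3a over all barcodes, with a log2 ratio of -1.65 (-1.67 to -1.64) that was -1.29 in G1 alone. Like the CD3 genes, Lck was lower in S than in G1 in every library, by a log2 ratio of -0.46 in DN3b γδ+ and -0.87 in Lat-/- DN3 γδint, for example. Between the DN3b libraries Lck was 1.70-fold lower in γδ+ than in γδ-, while Zap70, its partner downstream, was 1.75-fold higher.

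Zap70 had the widest range of the 9 genes in WT. It was at 14.35 CPM (13.35 to 15.4) in DN3a, 46.7 CPM (46.0 to 47.5) in DN3b γδ-, 39.3 CPM in DN4 γδ-, 81.8 CPM in DN3b γδ+ and 120.5 CPM (117.9 to 123.1) in DN4 γδ+. Each library after selection stood above DN3a, the γδ+ libraries stood above the γδ- ones, and the span from lowest to highest was 8.397-fold. The log2 ratio over DN3a was 1.70 (1.60 to 1.81) for DN3b γδ- and 2.51 (2.41 to 2.62) for DN3b γδ+, and among G1 barcodes it was 1.81 and 2.90.

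Syk went the other way between DN3a and each later stage. It was at 19.7 CPM (18.5 to 20.9) in DN3a, 9.66 CPM in DN3b γδ-, 5.85 CPM in DN4 γδ-, 5.745 CPM in DN3b γδ+ and 3.57 CPM (3.14 to 4.04) in DN4 γδ+, a 5.52-fold range in which only DN4 γδ- and DN3b γδ+ overlapped. Syk is also the kinase of the B cell receptor, and the B-like barcodes of these libraries held it at 135 to 234.5 CPM. If Cd74, a B cell transcript, marks how much B cell RNA the thymocyte barcodes carried, that RNA would hold between 0.637% of their Syk in DN3b γδ- and 5.52% in DN4 γδ-.

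The promoters of these related kinases are shown because Zap70 was lowest in DN3a and highest in DN4 γδ+, and Syk the reverse. Over all barcodes, however, both kinases were lower in DN4 γδ- than in DN3b γδ-. The windows shown are the first RefSeq windows of each gene, laid out as above. The 3' reads do not show which annotated start was used.
Zap70, chr1:36761548-36761847, plus strand: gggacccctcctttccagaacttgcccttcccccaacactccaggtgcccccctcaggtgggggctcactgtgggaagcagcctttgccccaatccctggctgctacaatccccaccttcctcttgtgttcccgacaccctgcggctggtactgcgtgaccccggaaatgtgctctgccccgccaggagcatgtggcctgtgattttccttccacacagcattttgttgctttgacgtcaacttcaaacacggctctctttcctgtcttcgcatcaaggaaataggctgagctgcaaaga
Syk, chr13:52583187-52583486, plus strand: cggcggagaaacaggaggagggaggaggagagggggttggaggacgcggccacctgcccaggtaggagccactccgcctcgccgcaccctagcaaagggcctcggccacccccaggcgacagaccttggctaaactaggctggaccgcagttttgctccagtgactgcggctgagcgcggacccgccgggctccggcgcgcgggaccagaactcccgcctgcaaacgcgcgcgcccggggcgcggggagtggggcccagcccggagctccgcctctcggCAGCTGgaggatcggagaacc
The Zap70 window shown holds neither marked motif and the Syk window shown holds CAGCTG. Of the other RefSeq windows, the second of Zap70 and the second of Syk both hold GGAAGT, and the third of Zap70 holds neither. Zap70 spans chromosome 1 from 36761798 to 36782818 and Syk spans chromosome 13 from 52583173 to 52648792, both on the plus strand.

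The ratio of Zap70 to Syk UMIs within a library does not depend on how libraries are scaled. There were 0.729 Zap70 UMIs per Syk UMI (0.663 to 0.800) in DN3a, against 4.84 in DN3b γδ- and 6.71 in its successor DN4 γδ-, and against 14.25 in DN3b γδ+ and 33.8 (29.8 to 38.5) in its successor DN4 γδ+. The log2 change of this ratio was 2.73 (2.59 to 2.88) from DN3a to DN3b γδ- and 4.29 (4.13 to 4.45) from DN3a to DN3b γδ+. Between the DN3b libraries it was 1.56 (1.46 to 1.66) in favour of γδ+, and other choices of barcodes, another depth and a correction for transcript length gave 1.5 to 1.87.

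For shares of barcodes, each barcode was thinned to 4000 UMIs, which 4537 to 17673 thymocyte barcodes per library reached. Zap70 was detected in 4.72% of DN3a, 16.4% of DN3b γδ-, 14.6% of DN4 γδ-, 28.1% of DN3b γδ+ and 36.9% of DN4 γδ+ barcodes. Before thinning, when depth also counts, these shares were 9.45%, 50.9%, 47.2%, 64.9% and 53.8% in the same order, in libraries whose median depth was 7275, 16950, 18510, 15390 and 6418 UMIs. In B-like barcodes at the same depth of 4000 UMIs, a Zap70 UMI was found in 0 of 45 in DN3a, which allows a share of up to 6.67%. It was found in 0 of 31 in DN3b γδ-, which allows up to 9.68%. In DN4 γδ- it was found in 0 of 23, which allows up to 13.0% (exact upper limit 14.8%). It was found in 5 of 47 (10.6%, 3.55% to 23.1%) in DN3b γδ+ and in 3 of 56 (5.36%, 1.12% to 14.9%) in DN4 γδ+. Whether such UMIs were free RNA or the B-like cells' own was not tested. The shares of both DN3b libraries and of DN4 γδ+ lay above these limits. The 14.6% of DN4 γδ- lay within the exact limit, and there the B-like level was 2.75 CPM (0.0695 to 15.3, from 1 UMI) against 39.3 CPM. The 4.72% of DN3a was not above its limit. In summed counts the B-like level there was 1.99 CPM (0.0503 to 11.1, from 1 UMI). The thymocyte level was 14.35 CPM (13.35 to 15.4). These intervals did not overlap, but the B-like one was wide. Both kinases were found in the same barcode in 0.433% of DN3a (0.288% to 0.626%) and 0.700% of DN3b γδ+ barcodes (0.552% to 0.876%). The product of the separate shares, 0.367% and 0.694%, lay inside these intervals, and it did so in all 7 libraries.

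**Figure D3:**
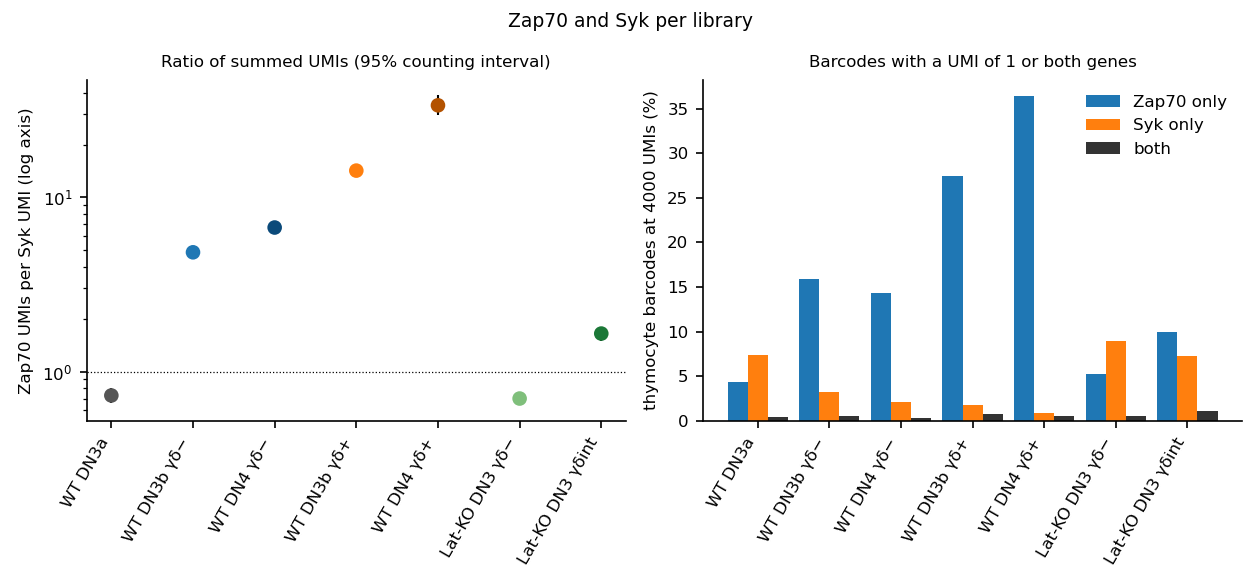
Zap70 UMIs per Syk UMI in each library (log axis, 95% interval), and the percent of thymocyte barcodes at 4000 UMIs with Zap70 alone, Syk alone or both. The ratio runs from 0.729 in DN3a to 33.8 in DN4 γδ+, and Lat-/- DN3 γδint lies at 1.65 above Lat-/- DN3 γδ- at 0.700.

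Zap70 had no fixed relation to the cell cycle. In DN3a it was higher in the 251 S barcodes than in G1, by a log2 ratio of 1.62 (1.07 to 2.13) that rested on 35 UMIs in S. In DN3b γδ- the ratio was 0.22 (0.03 to 0.41), in DN3b γδ+ 0.01 (-0.11 to 0.14) and in DN4 γδ+ -0.67 (-0.94 to -0.42). In DN4 γδ- it was -0.27 (-0.47 to -0.06). It was 0.55 (-0.20 to 1.22) in Lat-/- DN3 γδ- and 0.62 (0.33 to 0.91) in Lat-/- DN3 γδint. The few DN3a barcodes in S thus held Zap70 at 34.9 CPM, close to the 39.9 CPM of G1 barcodes in DN3b γδ-.

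Lcp2, which encodes the adaptor SLP-76, lies on chromosome 11 from 34046920 to 34092295 on the plus strand. It was at 79.2 CPM (76.8 to 81.6) in DN3a, 36.4 CPM in DN3b γδ-, 42.0 CPM in DN4 γδ-, 98.6 CPM in DN3b γδ+ and 139.9 CPM in DN4 γδ+. Its order matched that of Cd247 except that DN4 γδ- and DN3b γδ- changed places. Lcp2 was 2.71-fold higher in DN3b γδ+ than in DN3b γδ-, with a log2 ratio of 1.44 (1.41 to 1.47) that was 1.37 in G1. B-like barcodes of DN3b γδ+ held Lcp2 at 37.5 CPM (21.4 to 60.8, from 16 UMIs). Those of DN3b γδ- held it at 4.17 CPM (0.860 to 12.2, from 3 UMIs). After subtraction of these loosely known levels the log2 ratio was 0.92.

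Lat, which encodes the membrane scaffold that SLP-76 joins, lies on chromosome 7 from 126363824 to 126369570 on the minus strand. It was at 648 CPM (641 to 655) in DN3a, 468 CPM in DN3b γδ-, 399 CPM in DN4 γδ+, 383 CPM in DN3b γδ+ and 357 CPM in DN4 γδ-. Its 1.82-fold range was the narrowest of the 9 genes, and it passed 2-fold in no WT comparison. The adaptors that act side by side thus had different patterns, with Lat highest in DN3a and Lcp2 highest in DN4 γδ+.

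**Figure D4:**
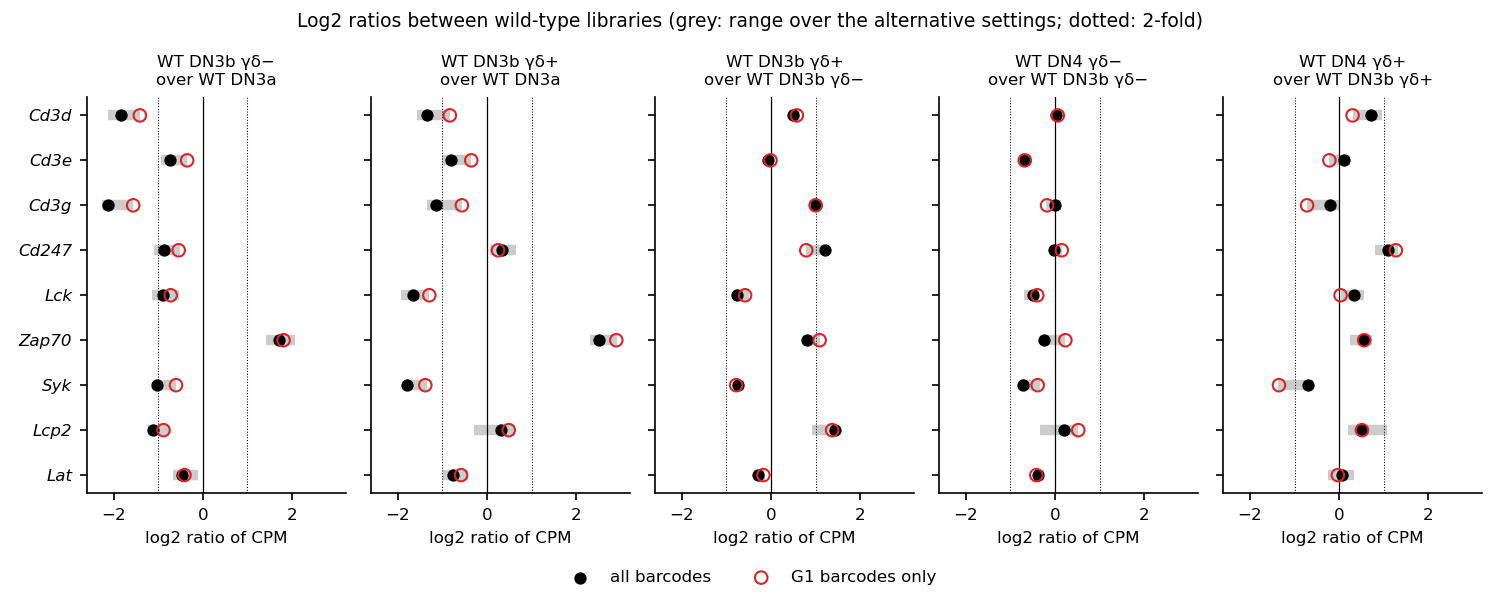
Log2 ratio of CPM for each of the 9 genes in the comparisons between WT libraries. Filled points are all barcodes and open circles are G1 barcodes only. Grey bars give the range over the alternative settings, not a counting interval, and dotted lines mark a 2-fold difference. Over all barcodes Zap70 lies right of the 2-fold line for both DN3b libraries over DN3a, and Cd3d and Cd3g lie left of it.

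Counts of members past 2-fold are given beside the share of all ranked genes past the same limit. A gene was ranked in a comparison with at least 20 CPM in 1 of its libraries, which 8 of the 9 reached in each WT comparison and Syk did not. Syk missed this limit narrowly, at 19.7 CPM in DN3a. Over all barcodes it was 2.04-fold lower in DN3b γδ- and 3.43-fold lower in DN3b γδ+, outside the counts that follow. Against DN3a, Zap70 was ranked only through the DN3b libraries, where it was higher. In DN3b γδ- over DN3a, 1 of 8 was at least 2-fold higher (Zap70), beside 11.6% of all ranked genes, and 3 were at least 2-fold lower (Cd3d, Cd3g and Lcp2), beside 14.7%. In DN3b γδ+ over DN3a, 1 was higher (Zap70), beside 11.7%, and 3 were lower (Cd3d, Cd3g and Lck), beside 13.5%. The single higher member was a share near the background in both. Of the lower ones, Lcp2 in DN3b γδ- was within 2-fold under TMM scaling (log2 ratio -0.76 against -1.12) and among G1 barcodes (-0.88). In DN3b γδ+, Cd3g was within 2-fold under both (-0.81 and -0.56) and Cd3d among G1 barcodes (-0.83), while Lck was beyond it under both.

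In DN3b γδ+ over DN3b γδ-, 2 of the 8 were higher (Cd247 and Lcp2), beside 5.23% of ranked genes, and 0 were lower, beside 1.82%. From DN3b γδ- to DN4 γδ-, 0 were higher and 0 lower, in a pair of libraries in which 0.475% and 0.673% of ranked genes passed. From DN3b γδ+ to DN4 γδ+, 1 was higher (Cd247), beside 10.6%, and 0 were lower, beside 7.45%. Cd247 was within 2-fold among G1 barcodes in the first of these (log2 ratio 0.79 against 1.21) and under TMM scaling in the last (0.80 against 1.10). The median log2 ratio of the ranked members was -0.88, -0.78, 0.66, -0.14 and 0.42 in these 5 comparisons in turn, where that of all ranked genes was 0.01, 0.03, -0.02, -0.11 and 0.01. DN3a entered 2 of the comparisons and each DN3b library 3, so that these values are not independent of each other.

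In the Lat-/- libraries the targeted gene was checked first. Lat was at 4.83 CPM (4.24 to 5.48) in Lat-/- DN3 γδ- and 0.899 CPM (0.623 to 1.26) in Lat-/- DN3 γδint, against 648 CPM in DN3a. The remaining 243 and 34 UMIs were spread over 235 of 6468 and 32 of 5274 barcodes, with at most 3 UMIs in a barcode. At 4000 UMIs the share of thymocyte barcodes with Lat was 2.20% and 0.375% in the same order. The B-like barcodes gave 1 of 50 (0.0506% to 10.65%) and 0 of 26, the latter allowing up to 11.5%. With so few B-like barcodes, these shares could not be told from background. The share was 4.76% (1.77% to 10.1%) for the 126 barcodes of Lat-/- DN3 γδ- whose sequence also occurs in a WT library and 3.61% (3.17% to 4.10%) for the others.

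In Lat-/- DN3 γδ- the other 8 genes were within 2-fold of DN3a. Cd3d was at 2373 CPM in Lat-/- DN3 γδ-, Cd3e at 1313 CPM, Cd3g at 4142 CPM and Cd247 at 182 CPM, each above its DN3a value, and their sum of 8010 CPM (7985 to 8035) was 1.38-fold that of DN3a. Lck was at 1319 CPM, 1.51-fold above DN3a, Zap70 at 17.1 CPM (16.01 to 18.3), Syk at 24.5 CPM and Lcp2 at 72.2 CPM, the last slightly below DN3a. Zap70 and Syk in particular were nearer to their DN3a levels than to those of any selected stage. In this comparison 8 members were ranked, all but Zap70, of which 0 were at least 2-fold higher, beside 2.32% of ranked genes, and 1 was lower, Lat itself, beside 0.467%. The median log2 ratio of the ranked members was 0.35 and that of all ranked genes 0.23.

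Between the Lat-/- libraries, the targeted Lat itself had the largest ratio of the 9 genes. Its log2 ratio was -2.43 (-2.99 to -1.90) for γδint over γδ-, from the 34 and 243 UMIs given above, which could not be told from background. Of the other 8 genes, Cd3d and Zap70 differed most. Cd3d was at 1195 CPM (1184 to 1206) against 2373 CPM, a log2 ratio of -0.99 (-1.01 to -0.97), just within 2-fold. Under TMM scaling it was -1.24 and among G1 barcodes -0.80. Cd3g was at 3800 CPM, Cd3e at 954.5 CPM and Cd247 at 197 CPM, so that Cd3d gave 19.4% of the CD3 UMIs here and 29.6% in Lat-/- DN3 γδ-. This library also had the low ribosomal share given above, shared by its B-like barcodes (19.6%), and the part of that in the Cd3d difference was not tested.

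Zap70 was at 32.6 CPM (30.8 to 34.5) in Lat-/- DN3 γδint, 1.90-fold above the 17.1 CPM of Lat-/- DN3 γδ-, with a log2 ratio of 0.93 (0.80 to 1.06) that ranged from 0.60 to 0.99 over the alternatives. Syk was at 19.75 CPM, close to its DN3a level. Zap70 UMIs per Syk UMI were 1.65 (1.51 to 1.81) in Lat-/- DN3 γδint and 0.700 in Lat-/- DN3 γδ-, a log2 change of 1.24 (1.06 to 1.42), where Lat-/- DN3 γδ- over DN3a gave -0.06 (-0.24 to 0.12). The γδint library thus lay between DN3a and DN3b γδ- in this ratio. Of the 8 ranked members, here all but Lat, 0 were at least 2-fold higher, beside 4.69% of ranked genes, and 0 lower, beside 3.25%.

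Of 52 further genes of proximal TCR signalling, grouped by role, 35 were ranked in DN3b γδ- over DN3a. Of these, 0 were at least 2-fold higher and 11 lower, beside 11.6% and 14.7% of all ranked genes, with a median log2 ratio of -0.51. The 35 and the 11 include Cd79b, whose UMIs were limited by the choice of barcodes, so that its place among them carries no information. Under TMM scaling 3 were higher and 7 lower, beside 22.2% and 8.42%, with a median of -0.15, and among G1 barcodes 1 was higher and 7 lower, beside 8.01% and 8.59%. The 6 genes with the largest difference were all lower. Cblb, a ubiquitin ligase, was at 15.04 against 97.8 CPM in DN3a, Pag1, an adaptor that brings the inhibitory kinase Csk to the membrane, at 50.9 against 249.4 CPM, and Sla2, an adaptor that restrains receptor signalling, at 37.4 against 97.8 CPM. The kinase Tec was at 7.003 against 37.5 CPM and Themis, an adaptor of thymocyte selection, at 76.2 against 201.7 CPM. Cd79b, at 13.1 against 40.9 CPM, is the remaining gene of the 6 but was used to choose the barcodes.

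In DN3b γδ+ over DN3b γδ-, 36 were ranked, 10 were at least 2-fold higher and 0 lower, beside 5.23% and 1.82% of all ranked genes, with a median log2 ratio of 0.56. These counts were 9 and 0 under TMM scaling, beside 4.89% and 1.956%, and 10 and 0 among G1 barcodes, beside 5.51% and 2.37%. The kinases held 3 of the 10, the enzymes and exchange factors 3, the cytosolic adaptors 2 and the transmembrane adaptors 2. Cd5, an inhibitory receptor known to follow the strength of TCR signals, was at 129.8 CPM in DN3b γδ+ and 10.9 CPM in DN3b γδ-, a log2 ratio of 3.57. Its relative Cd6 was at 69.6 against 16.2 CPM. Blk, a kinase of the Src family known from B cells and γδ T cells, was at 47.0 against 6.398 CPM, while B-like barcodes held it at 131 and 114 CPM in the same libraries. Dok2, an adaptor that dampens Ras, was at 95.4 against 21.97 CPM, Rasgrp1, an exchange factor that activates Ras, at 194 against 60.1 CPM, and Tespa1, an adaptor of thymocyte selection, at 206 against 67.4 CPM.

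In the other comparisons the list gave 10 higher and 9 lower of 38 for DN3b γδ+ over DN3a, beside 11.7% and 13.5% of all ranked genes. Under TMM scaling it gave 12 higher and 5 lower, beside 20.8% and 9.003%. The 38 and the 9 lower include Cd79b, which was used to choose the barcodes. It gave 12 higher and 0 lower of 43 for DN4 γδ+ over DN3b γδ+, beside 10.6% and 7.45%. This was 8 higher and 0 lower under TMM scaling, where the shares of all ranked genes were 6.01% and 15.8%. For DN4 γδ- over DN3b γδ- the list gave 0 of 31 in either direction, beside 0.475% and 0.673%. In the Lat-/- comparisons it gave 0 in either direction, of 35 for Lat-/- DN3 γδ- over DN3a, beside 2.32% and 0.467%, and of 38 for Lat-/- DN3 γδint over Lat-/- DN3 γδ-, beside 4.69% and 3.25%.

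**Figure D5:**
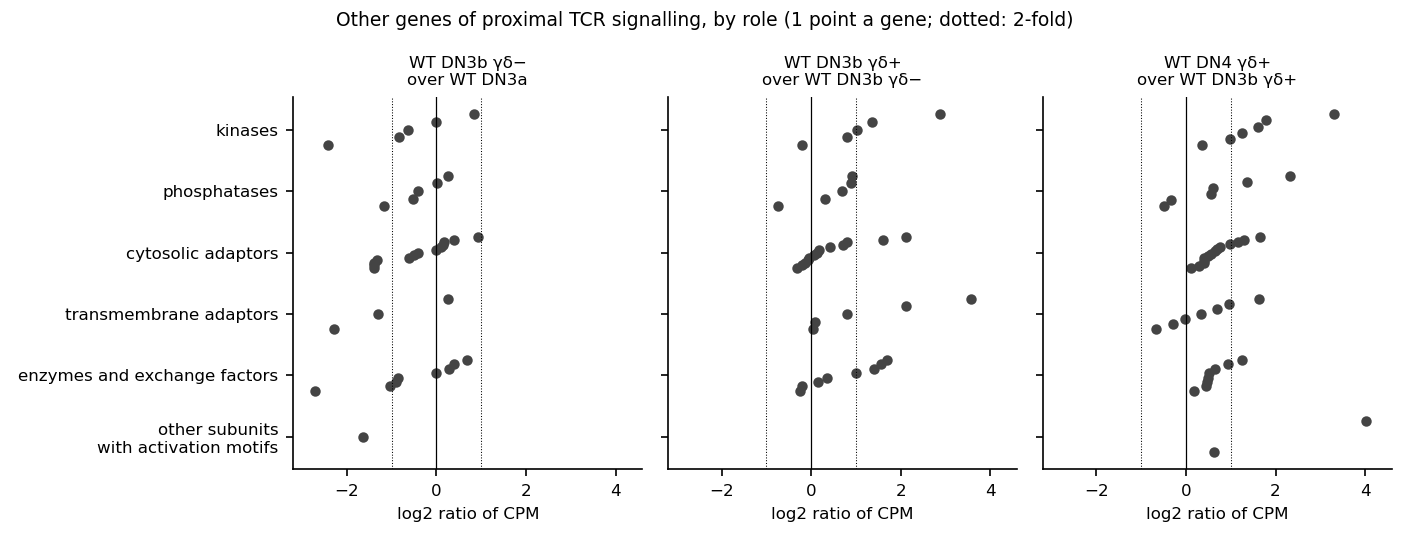
Log2 ratio of CPM of the ranked genes among the 52 further signalling genes, by role, with lines at a 2-fold difference. The comparisons drawn are DN3b γδ- over DN3a, DN3b γδ+ over DN3b γδ- and DN4 γδ+ over DN3b γδ+. In DN3b γδ+ over DN3b γδ-, 10 of 36 genes lie beyond the upper line and 0 beyond the lower.

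The transcripts whose WT pattern was most like that of each member were ranked by Pearson's r of log2(CPM + 1) over the 5 WT libraries among 3491 genes, as a description in which all points share the same libraries and their depth. For Cd3d they were Fam117a (r = 0.9992), Ccnl2 and Slc25a36, for Cd3e Ptprs (0.9851), Arfgap2 and Ubald1, and for Cd3g Stard3nl (0.9955), Cd47 and Fut8. For Cd247 they were Tgfbr2 (0.9990), Nfkb1 and Laptm5, and for Lcp2 Sesn3 (0.9989), Il21r and Nr4a2. For Lck they were Cox14 (0.9980), Cpsf6 and Pdk1, for Zap70 Calm3 (0.9898), Pafah1b1 and Ebp, and for Syk Nt5c2 (0.9973), Syngr2 and B3gnt2. Among the members themselves r was 0.97 for Cd247 with Lcp2 and for Lat with Lck, 0.92 for Cd3d with Cd3g and -0.93 for Syk with Zap70. Laptm5, for example, was at 175 CPM in DN3a, 93.8 CPM in DN3b γδ-, 87.2 CPM in DN4 γδ-, 228 CPM in DN3b γδ+ and 459 CPM in DN4 γδ+, the order of Cd247. With 5 points and the top 3 of 3491 genes kept, a high r carries little weight. It also takes no account of the size of differences. Ccnl2 was at 105.9 CPM in DN3a and 63.2 CPM in DN3b γδ-, where Cd3d was at 1710 and 477 CPM.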

How the data were processed

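Single-cell 3' RNA (10x, v3 chemistry) was measured in 7 libraries of sorted mouse thymocytes, 1 per group. The deposited files hold raw UMI counts per gene and barcode, which the authors made with Cell Ranger (the file headers name release 4.0.0 and the submitters' processing notes 5.0.1) on mm10 with the edited Trdc reporter as an added feature. The counts were neither scaled nor corrected, and the barcodes were those called cells. No doublet caller was run here. An alternative left out the top 8% of barcodes by UMIs.

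The quality filter was that of the study, with 200 genes or more and a mitochondrial share of no more than 15%. Thymocyte barcodes held at most 1 UMI of Cd79a, Cd79b and Ms4a1. Counts were summed per library and divided by the library's thymocyte UMIs (Python 3.11.15 with scipy 1.17.1 and numpy 2.4.6, tables by pandas 2.3.3 with pyarrow 21.0.0 and plots by matplotlib 3.10.9). Intervals at 95% were exact Poisson for CPM, Clopper-Pearson for shares and conditional binomial for ratios, and a count of 0 was bounded at 3 counts. They cover counting error only. Ranked genes had at least 20 CPM in 1 library and 10 UMIs over both, without mitochondrial and ribosomal-protein genes. Phases came from published S and G2M lists scored at 4000 UMIs. A planned comparison within the DN4 γδ+ library is not reported here. Scripts were tested on simulated data.

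The 9 genes, the marker lists, the pathway list and the alternatives were chosen with earlier results of these data known, and the promoter motifs after the sequences had been seen. The genes named were the 9 members, the 6 genes of the pathway list with the largest difference of at least 2-fold in DN3b γδ+ over DN3b γδ-, in DN3b γδ- over DN3a and in the Lat-/- comparisons, and the 3 genes most like each member except Lat in WT among those with at least 50 CPM in 1 WT library. Positions are from GENCODE vM21 and promoters from RefSeq GRCm38.p6. Alternatives covered barcode choice, depth, phase, TMM scaling (edgeR 4.0.16, R 4.3.3), a loess trend on transcript length, subtraction of the B-like level, and other limits for ranking and fold. TMM scaling and G1 barcodes for the pathway list were chosen after seeing the data.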

Additional observations from a re-analysis of the deposited data

Results flagged for a closer look

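For 4 of the genes the same step had opposite signs in the αβ and γδ branches both over all barcodes, with intervals that excluded 0, and under TMM scaling. Under TMM scaling Lck from DN3b to DN4 in γδ+ was at 0.03, close to no difference, and Zap70 at 0.25. The differences were not tested, since each branch has 1 library per stage. From DN3b to DN4, Lck had a log2 ratio of -0.49 in γδ- and 0.34 in γδ+, and Zap70 had -0.25 in γδ- and 0.56 in γδ+. Among G1 barcodes Zap70 was higher at DN4 in both branches, at 0.23 and 0.56, and Lck in γδ+ was at 0.03. Over all barcodes Cd3e (-0.67 and 0.11) and Lat (-0.39 and 0.06) also had opposite signs from DN3b to DN4, but under TMM scaling both were lower in both branches. From DN3a to DN3b, Cd247 had -0.88 in γδ- and 0.33 in γδ+, and Lcp2 had -1.12 in γδ- and 0.32 in γδ+. In G1 both genes kept these signs, at -0.54 and 0.25 for Cd247 and at -0.88 and 0.49 for Lcp2. After subtraction of the B-like level, Lcp2 in γδ+ was at -0.30 and Cd247 at 0.06, and Zap70 in γδ- from DN3b to DN4 was at 0.16. The levels subtracted rest on few UMIs, for Lcp2 on 16 in DN3b γδ+ and 2 in DN3a.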

How the results depend on the processing

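No paired analysis was possible because each group has 1 library, and for the same reason no replicate could be left out. Of 63 member log2 ratios, 51 kept their sign under each alternative that gave a value, as did 15 of 15 past 2-fold. Subtraction of the B-like level gave no value for 8 of the 63 (7 of Syk and Lat in Lat-/- DN3 γδint), of which 3 were past 2-fold. Of the recomputed counts of members past a limit, 180 were within 1.5 times their value as reported, while 16 were not. TMM scaling moved all log2 ratios of a comparison together, by 0.36 and 0.32 for DN3b γδ- and γδ+ over DN3a, -0.30 for DN4 γδ+ over DN3b γδ+, -0.17 for Lat-/- DN3 γδ- over DN3a and -0.25 for Lat-/- DN3 γδint over Lat-/- DN3 γδ-, and by less than 0.1 elsewhere. TMM scaling left 0 members higher in DN4 γδ+ over DN3b γδ+ in place of 1, beside 6.01% of all ranked genes. It left 1 lower in Lat-/- DN3 γδint in place of 0, beside 4.695%. The trend on transcript length also left 1 lower there. For this trend and for subtraction of the B-like level, the share of all ranked genes was not computed. After subtraction of the B-like level, 5 in place of 3 were lower in DN3b γδ- over DN3a, 1 in place of 2 higher in DN3b γδ+ over DN3b γδ-, 2 in place of 1 higher in DN4 γδ+ and 1 in place of 0 lower in Lat-/- DN3 γδint. At a limit of 1.5-fold, 6 members were lower in DN3b γδ- (beside 26.2% of all ranked genes) and 5 in DN3b γδ+ (23.8%) over DN3a, 4 higher (11.7%) and 1 lower (7.79%) in DN3b γδ+ over DN3b γδ-, 1 lower in DN4 γδ- (6.32%), 2 higher in DN4 γδ+ (21.6%), 2 higher in Lat-/- DN3 γδ- over DN3a (16.1%), and 1 higher (19.2%) and 1 lower (6.37%) in Lat-/- DN3 γδint. The largest move under G1 barcodes alone was 0.66, for Syk in DN4 γδ+ over DN3b γδ+. The causes were not tested. Lat in Lat-/- DN3 γδ- over DN3a had a log2 ratio of -7.07, and of -8.22 after subtraction of the B-like level. Its level in that Lat-/- library could not be told from background. Depth sets the interval of Syk in DN4 γδ+, 3.14 to 4.04 CPM.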

Other observations

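Cd79b, one of the B cell genes used to choose thymocyte barcodes, was also found apart from other B cell genes. Barcodes with 2 to 9 UMIs of Cd79a, Cd79b and Ms4a1 numbered 920 in DN3a, 1378 in Lat-/- DN3 γδ- and 1029 in Lat-/- DN3 γδint, and 456 to 1364 in the others. They held 21.5 Cd79b UMIs per Cd79a UMI in DN3a, 26.1 in Lat-/- DN3 γδ- and 35.4 in Lat-/- DN3 γδint, where B-like barcodes of the 7 libraries held 0.609 to 0.799. Their CD3 sum was 6207 CPM in DN3a, against 5805 CPM in thymocyte barcodes. Counting them as thymocytes, an alternative chosen after seeing the data, kept the sign of 63 of 63 member ratios and moved none by more than 0.11.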
